A study of Mus musculus with 6 samples.

Results

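The genes described here are 60 protein-coding genes of the mitotic apparatus: the kinases and cyclins of mitotic entry, the spindle checkpoint, the kinetochore, the motors and assembly factors of the spindle, and the machinery of anaphase and cytokinesis. They were taken by gene symbol from a deposited table of 55487 mouse genes. All 60 were found once each, and all 60 passed the filter on low counts, which left 15419 genes for testing. The table holds RNA-seq of mouse bone marrow cells that the labels call long-term haematopoietic stem cells (LT-HSCs), the cells that maintain blood formation over life. All libraries carry the same label of genotype, an Mmrn1-GFP type, and differ in a label of Mmrn1 status: 3 libraries are Mmrn1-low and 3 are Mmrn1-high. Mmrn1 encodes multimerin 1, a protein of platelets and endothelium. The age of the mice, the reporter construct, the surface gate and the origin of the replicates are not stated in the sources at hand. The p-values therefore reflect the spread among these 6 libraries alone, and that spread may be technical.

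Cells that divide make most of these transcripts in a burst late in the cell cycle. Resting cells repress the genes through the DREAM complex, whose MuvB core binds the cell cycle genes homology region (CHR), a short element near the start site. In cycling cells MuvB instead joins B-Myb (Mybl2) and FoxM1 and activates the same promoters. The proteins then act in order: cyclin-dependent kinase 1 starts mitosis, kinetochores attach chromosomes to the spindle under the watch of the checkpoint, and the anaphase-promoting complex (APC/C) marks securin and cyclin B for destruction so that sister chromatids part. LT-HSCs are known for dividing rarely, whereas the progenitors they give rise to divide often.

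Library totals lay between 11595104 and 30909990 counts. Mmrn1 itself was at 5.69 ± 0.112 CPM (read counts brought to equal library totals by TMM factors, which allow for the make-up of each library) in Mmrn1-low and 10.0 ± 1.33 in Mmrn1-high libraries (SD, n = 3 each), a log2 difference of 0.82 ± 0.12 (SE, adjusted p = 0.000485). Of 12 LT-HSC markers, 11 were higher in Mmrn1-high cells and Hoxb5 was not called. The summed level of the list went from 444 to 472 CPM up to 761 to 802 CPM. Kit, which changed by only 0.26, held the largest part of that sum (329 and 395 CPM). Slamf1 (1.54 and 4.92 CPM), Procr (4.34 and 12.4 CPM) and Fgd5 (2.93 and 9.33 CPM) were low in both groups. Whether the sorted cells match the LT-HSC label was not tested. Markers of other cells moved too, where 30.7% of all tested genes rose and 30.5% fell. All 6 markers of multipotent and lymphoid progenitors rose, from a summed 778 to 808 CPM to 2299 to 2314 CPM. Flt3 went from 156 to 546 CPM and Dntt from 101 to 544 CPM. In contrast, 11 of 12 granulocyte and monocyte progenitor markers fell, from 28388 to 29708 CPM to 5239 to 5358 CPM. Among them were Mpo (12575 to 1945 CPM) and Prtn3 (2986 to 470 CPM). All 10 marrow macrophage markers fell, from 172 to 176 CPM to 31.4 to 32.2 CPM. Of 10 erythroid progenitor markers 6 fell and 2 rose, with sums of 737 to 771 and 441 to 447 CPM. Of the tested B lineage markers 8 of 9 rose (list sums of 35.4 to 37.3 and 51.9 to 53.0 CPM). Cd79b, the 1 not called, held the largest part of those sums (24.8 and 26.9 CPM). Of 8 megakaryocyte markers 6 were tested and 4 rose (95.4 to 98.1 and 228 to 237 CPM). Most of that sum was Itga2b (63.2 and 177 CPM). Pf4 and Vwf were not called, and Gp6 and Ppbp were too low to be tested. Among 7 tested plasma cell markers 3 fell and 1 rose (291 to 418 and 109 to 151 CPM). Of 9 T and NK cell markers only 4 passed the filter. Lck (10.2 and 37.5 CPM), Klrb1c (1.61 and 4.09 CPM) and Gzmb (0.979 and 3.19 CPM) rose. Nkg7, which is also in the granulocyte and monocyte list, fell. Cd3e, Cd3d, Cd3g, Trac and Ncr1 were too low to be tested. The part of these cell types in the results that follow was not tested.

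Mitotic transcripts were lower in Mmrn1-high cells in every role group. Of the 60 genes, 57 fell and 0 rose at an adjusted p under 0.05 (edgeR quasi-likelihood test, Benjamini-Hochberg), where 30.5% of all tested genes fell, 30.7% rose and 61.2% were called either way. The 3 genes not called were Cenph, Spc25 and Pttg1. A fall of at least 1 on the log2 scale was seen in 27 members, against 4.9% of all tested genes. In 58 members the highest Mmrn1-high library lay below the lowest Mmrn1-low library, against 33.7% of all genes. The median log2 fold change of Mmrn1-high over Mmrn1-low was -0.99 (quartiles -1.12 and -0.75), the median of all tested genes was 0.01, and 5.24% of tested genes lay at or below the members' median. Because these are bulk libraries, fewer dividing cells and less of each transcript per dividing cell cannot be told apart.

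**Figure D1:**
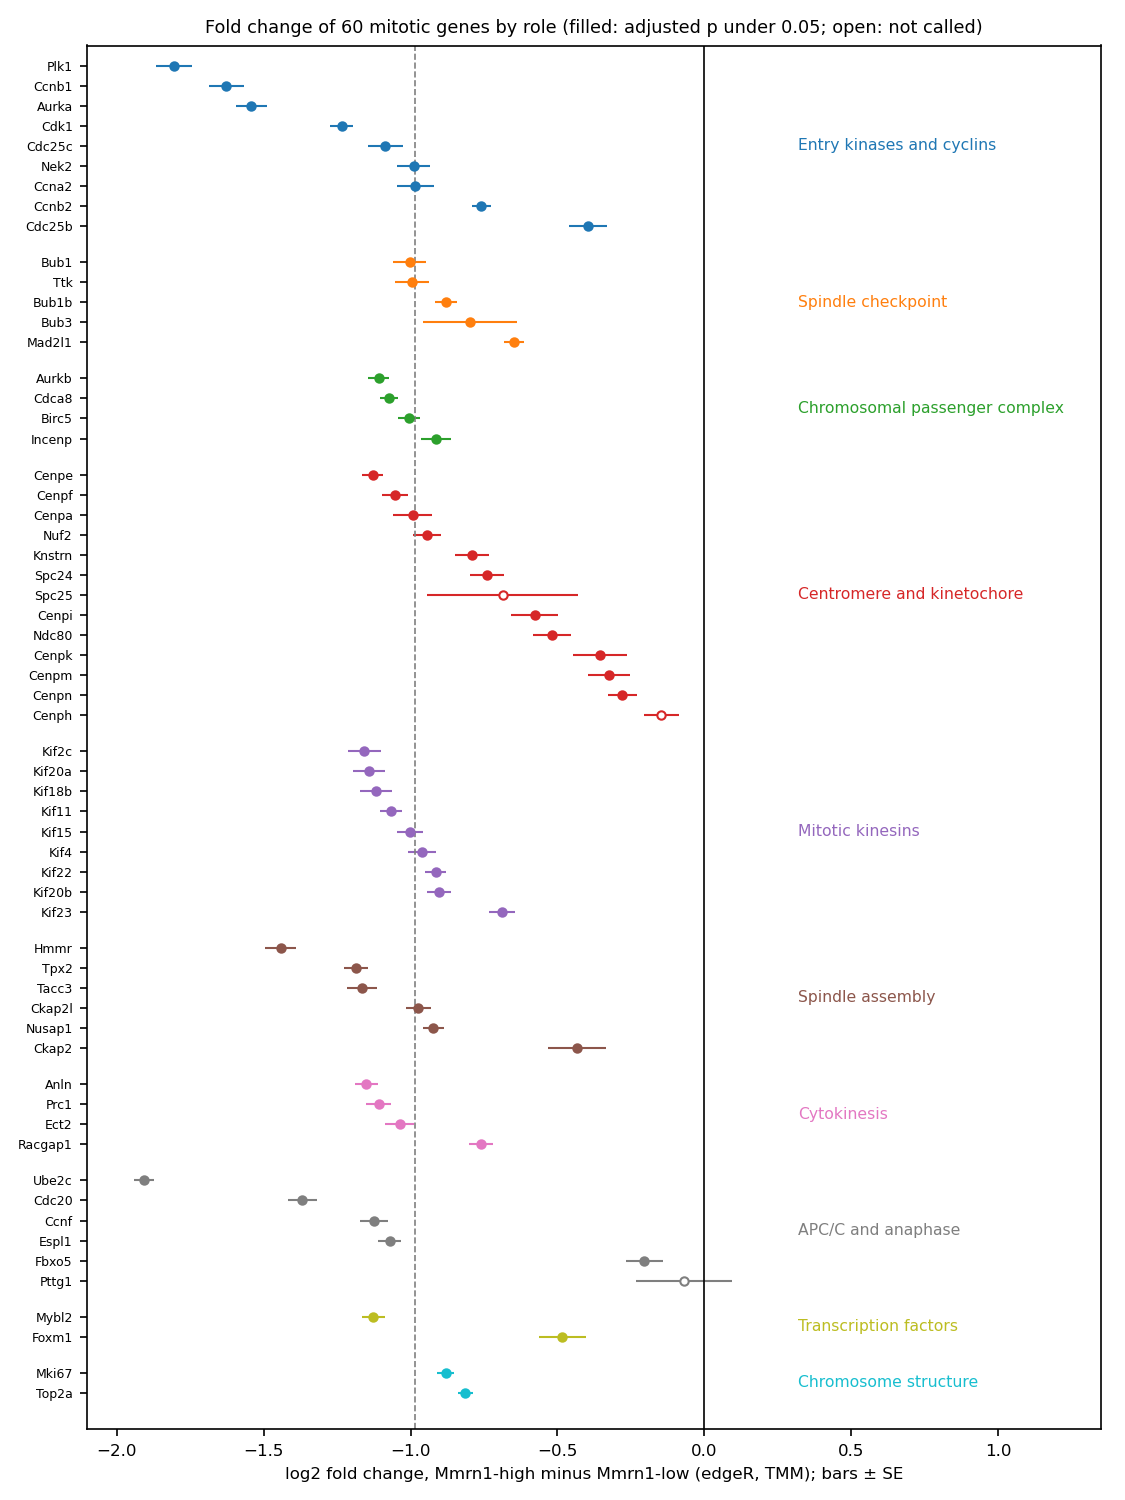
Log2 fold change of Mmrn1-high minus Mmrn1-low (edgeR, bars ± SE) for each of the 60 genes, grouped by role; filled points passed an adjusted p of 0.05, open points did not, and the dashed line is the members' median of -0.99. All points lie left of 0, from Ube2c at -1.91 to Pttg1 at -0.07, and the kinetochore group holds most of the points nearest to 0.

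Summed over the 60 genes, the level was 9088, 9019 and 9069 CPM in the Mmrn1-low libraries. In the Mmrn1-high libraries it was 4586, 4643 and 4580 CPM. Mitotic transcripts therefore made up 0.906% of the TMM-scaled total in Mmrn1-low and 0.460% in Mmrn1-high cells, a 1.97-fold difference (log2 -0.98), and libraries of a group differed by far less than the groups did, with SDs of 35.6 and 34.7 CPM. Single members were also even between replicates: the median coefficient of variation was 3.15% among Mmrn1-low and 4.03% among Mmrn1-high libraries, against 6.87% and 6.35% for all tested genes. The highest value in each group was that of Spc25 in Mmrn1-low (31.1%) and of Bub3 in Mmrn1-high libraries (14.5%). Scaling by library size alone, without TMM factors, moved the median fold change of all tested genes by 0.15 on the log2 scale and that of the members to -0.84, with 54 members lower; called genes then split 66% higher to 34% lower, against 50.2% to 49.8%.

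**Figure D2:**
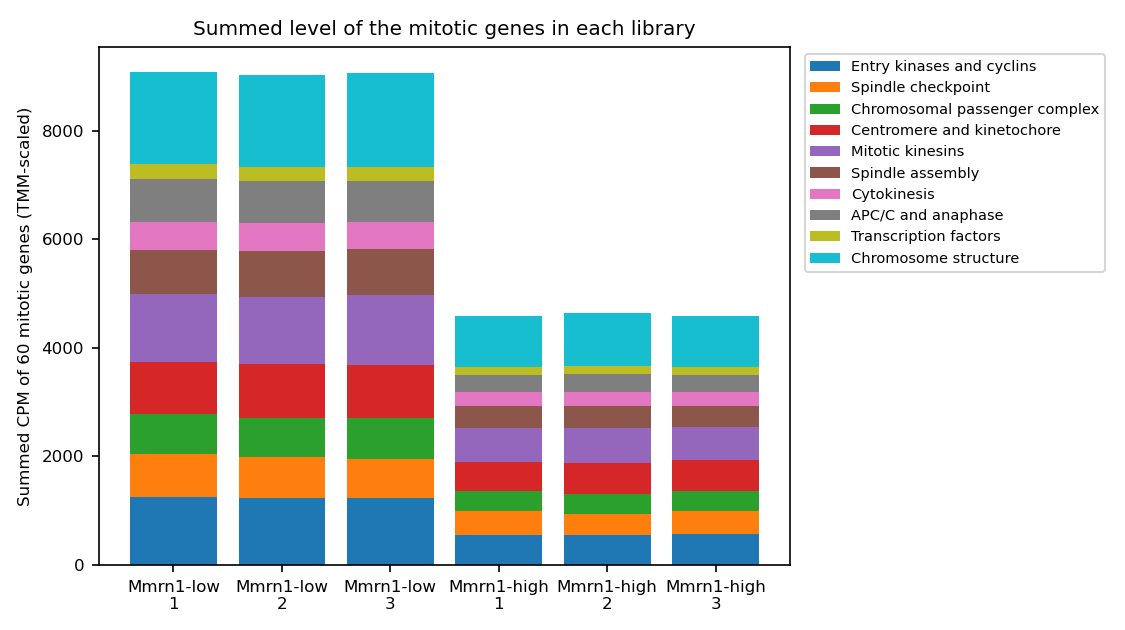
Stacked bars show the summed TMM-scaled CPM of the 60 genes in each of the 6 libraries, split by role group. The Mmrn1-low libraries stand between 9019 and 9088 CPM and the Mmrn1-high libraries between 4580 and 4643 CPM, and every role group is thinner in the Mmrn1-high bars.

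Promoters of 52 members were found in the RefSeq promoter table (GRCm38.p6), each a window of 300 bases from 250 before to 50 after a start. The windows were searched on both strands for the CHR (TTTGAA or TTCGAA), for the CCAAT box bound by NF-Y, and for E2F sites (GGCGGGA or GGCGCGA). CHR letters stood in 38 of the 52 members (73.1%), against 21.7% of 27025 mouse genes. CCAAT letters stood in 39 (75%, against 41.1%), E2F letters in 15 (28.8%, against 15.5%), and CHR and CCAAT together in 33 (63.5%, against 8.61%). The CCAAT and E2F letters were not particular to the members. In a list of G1/S and replication genes, described below, CCAAT letters stood in 21 and E2F letters in 13 of 27. Members with CHR letters had a median log2 fold change of -0.99 (38 genes) and members without had -0.93 (14 genes). A match shows only that these letters are present. The 110 bases before the start are printed for 9 members picked by hand: 6 with both CHR and CCAAT letters in this stretch, from several role groups, and below them 3 in which it has no CHR letters. Capitals mark CHR letters (TTTGAA, or TTCAAA when read from the other strand) and CCAAT letters (CCAAT, or ATTGG from the other strand), and each line reads 5′ to 3′ along the gene's own strand.
Ube2c, chr2:164769819-164769928, plus strand: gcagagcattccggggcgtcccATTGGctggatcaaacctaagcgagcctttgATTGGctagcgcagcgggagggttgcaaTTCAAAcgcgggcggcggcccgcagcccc
Cdc20, chr4:118437344-118437453, minus strand: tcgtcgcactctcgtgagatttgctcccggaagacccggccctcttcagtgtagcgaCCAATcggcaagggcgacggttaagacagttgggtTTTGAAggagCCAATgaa
Cdk1, chr10:69352913-69353022, minus strand: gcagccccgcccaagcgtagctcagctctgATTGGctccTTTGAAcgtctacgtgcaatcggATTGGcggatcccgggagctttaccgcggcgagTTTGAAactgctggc
Kif11, chr19:37376272-37376381, plus strand: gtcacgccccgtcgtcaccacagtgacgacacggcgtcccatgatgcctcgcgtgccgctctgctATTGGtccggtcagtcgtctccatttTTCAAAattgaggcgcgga
Espl1, chr15:102296183-102296292, plus strand: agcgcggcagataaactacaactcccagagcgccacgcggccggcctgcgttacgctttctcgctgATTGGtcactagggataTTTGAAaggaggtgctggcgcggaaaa
Top2a, chr11:99024190-99024299, minus strand: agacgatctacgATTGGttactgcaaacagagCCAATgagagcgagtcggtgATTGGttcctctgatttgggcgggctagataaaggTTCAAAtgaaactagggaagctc
Ccnb1, chr13:100786487-100786596, minus strand: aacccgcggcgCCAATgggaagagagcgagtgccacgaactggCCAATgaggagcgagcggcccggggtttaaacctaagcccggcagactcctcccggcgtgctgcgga
Cenph, chr13:100775900-100776009, minus strand: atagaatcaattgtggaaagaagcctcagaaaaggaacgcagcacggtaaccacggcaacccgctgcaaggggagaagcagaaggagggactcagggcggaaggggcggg
Pttg1, chr11:43425982-43426091, minus strand: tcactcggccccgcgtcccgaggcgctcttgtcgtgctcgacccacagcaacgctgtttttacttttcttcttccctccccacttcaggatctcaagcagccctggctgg

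In the first 6 of these stretches CHR letters lay between 10 and 71 bases before the start, with CCAAT letters in the same stretch. In Top2a, for example, the CHR letters began 23 bases before the start and CCAAT letters stood at 98, 78 and 58 bases. Ccnb1, among the members that fell most, had CCAAT letters at 99 and 67 bases before the start and neither TTTGAA nor TTCGAA in its window. Other forms of the CHR were not searched, so its promoter may still hold a CHR. Cenph and Pttg1, both not called, had neither in the printed stretch. For Pttg1 this stretch lies inside the gene as annotated in the count table (chr11:43420250-43426251). The bases upstream of that annotated gene were not searched, so its promoter there is not described. Other members with small changes do have CHR letters, among them Fbxo5, Cenpn and Cenpm, with log2 fold changes of -0.20, -0.28 and -0.33. No promoter was matched for Foxm1, Incenp, Ccna2, Spc24, Cdc25c, Kif20a, Aurkb and Tpx2.

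All 9 genes of the mitotic entry group fell, with a median log2 fold change of -1.09 and a range from -1.81 to -0.40. Plk1 (ENSMUSG00000030867, GRCm38 chr7:122159439-122169873), the polo-like kinase that drives centrosome maturation and mitotic entry, stood at 195, 217 and 192 CPM in the Mmrn1-low libraries and at 54.5, 61.1 and 56.6 CPM in the Mmrn1-high libraries. The groups lay far apart, at 201 ± 13.5 and 57.4 ± 3.36 CPM, a log2 fold change of -1.81 ± 0.06 (SE, edgeR adjusted p = 1.53e-07). Aurka, the centrosomal Aurora kinase that activates Plk1, went from 123, 121 and 116 CPM to 38.8, 43.7 and 40.7 CPM (-1.54 ± 0.05). Cdk1 (ENSMUSG00000019942), the kinase at the heart of mitotic entry, went from 171, 163 and 170 CPM to 69.5, 74.0 and 70.9 CPM (-1.23 ± 0.04). None of these 3 genes had a Mmrn1-high library near a Mmrn1-low library.

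The B-type cyclins that activate Cdk1 fell by different amounts. Ccnb1 (ENSMUSG00000041431, chr13:100778650-100786570) was at 95.7, 96.4 and 98.3 CPM in Mmrn1-low and at 34.1, 30.4 and 29.7 CPM in Mmrn1-high libraries, a log2 fold change of -1.63 ± 0.06 (edgeR adjusted p = 2e-07). Ccnb2 was at 153, 152 and 156 CPM and at 92.1, 91.4 and 88.6 CPM, a change of -0.76 ± 0.03 (edgeR adjusted p = 4.97e-07). By the authors' FPKM, which divides the count by a gene length and the library total, Ccnb2 was the most abundant member of the group. It stood at 95.1 ± 1.42 and 62.3 ± 1.45, and the Ccnb1 row at 11.4 ± 0.190 and 4.10 ± 0.321. For Ccnb1 the length used does not match its 4217 annotated exon bases. FPKM levels of different genes therefore depend on lengths that were not recomputed here. The Ccnb1 to Ccnb2 ratio of FPKM went from 0.120 ± 0.00107 to 0.0658 ± 0.00396, and the ratios of the groups did not overlap.

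Near-identical copies of Ccnb1 also held counts. Across the 6 libraries, 4 annotated pseudogenes at least 95% identical to Ccnb1 over at least 200 bases held 9679 counts, against 7482 counts in the Ccnb1 row itself, which is 56.4% of the sum. With the copies added in, Ccnb1 stood at 220 ± 8.11 and 71.5 ± 2.36 CPM, with a log2 fold change of -1.62 ± 0.04 (edgeR adjusted p = 3.9e-08). The copies Ccnb1-ps (-1.65 ± 0.06), Gm12856 (-1.69 ± 0.08) and Gm8416 (-1.43 ± 0.12) had fold changes near that of the gene. The fall of Ccnb1 is thus of the same size with or without its copies, while its level, and any ratio built on it, is uncertain. Whether the counts of the copies came from Ccnb1 transcripts was not tested.

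The remaining entry genes all fell. Ccna2, the cyclin that spans S phase and early mitosis, changed by -0.98 ± 0.06. Nek2, a centrosome kinase, changed by -0.99 ± 0.06 and Cdc25c, a phosphatase that switches Cdk1 on, by -1.09 ± 0.06. Its relative Cdc25b changed least in the group: it was at 53.3, 48.3 and 47.6 CPM in Mmrn1-low and at 36.9, 36.7 and 39.7 CPM in Mmrn1-high libraries (-0.40 ± 0.06, edgeR adjusted p = 0.000861), and the groups did not overlap.

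**Figure D3:**
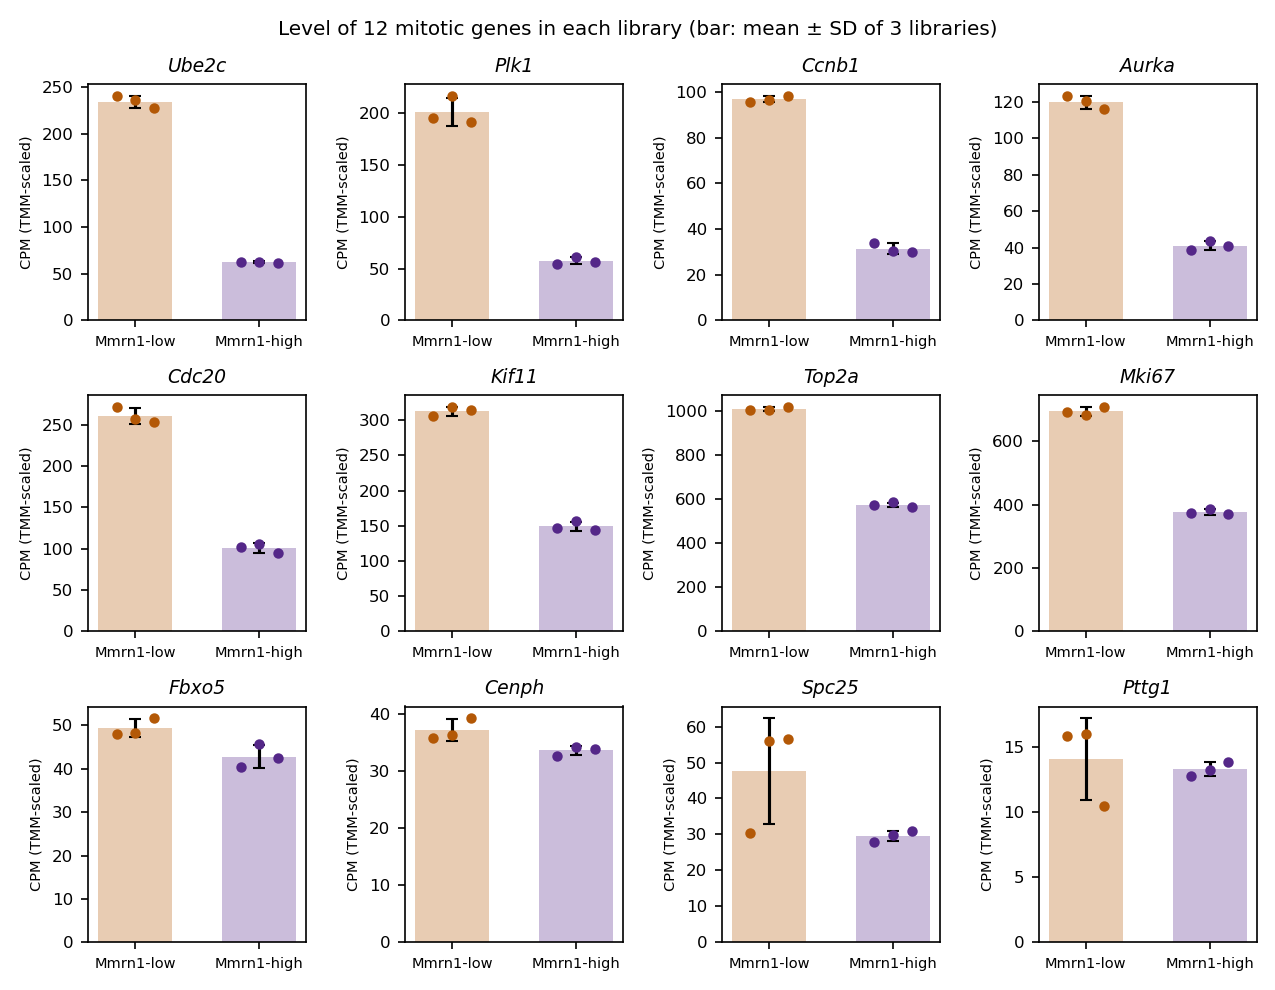
Each panel shows the TMM-scaled CPM of a single gene; points are libraries, bars the mean and error bars the SD of 3 libraries. Ube2c, Plk1, Ccnb1, Aurka, Cdc20, Kif11, Top2a and Mki67 have groups far apart, Fbxo5 and Cenph have groups that lie close but do not overlap, and in Spc25 and Pttg1 a single Mmrn1-low library, at 30.5 and 10.5 CPM, lies within or below the Mmrn1-high values.

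All 5 spindle checkpoint genes fell, with a median of -0.88. These proteins hold back anaphase until every kinetochore is attached. Bub1, a kinase that docks on unattached kinetochores, fell most, from 127, 126 and 138 CPM to 69.5, 63.2 and 63.0 CPM (-1.0 ± 0.06, edgeR adjusted p = 1.98e-06). Bub1b, which encodes BubR1, an inhibitor of the APC/C, was the most abundant per length and went from 242, 247 and 234 CPM to 128, 129 and 137 CPM (-0.88 ± 0.04, edgeR adjusted p = 4.92e-07). Mad2l1, another inhibitor of the APC/C, changed least, from 128, 128 and 130 CPM to 83.8, 81.0 and 81.5 CPM (-0.65 ± 0.03, edgeR adjusted p = 1.22e-06). For these 3 genes the libraries within a group lay close together. Bub3 was the most scattered, at 224, 190 and 167 CPM against 118, 93.3 and 124 CPM (-0.80 ± 0.16, edgeR adjusted p = 0.00886), and still without overlap. Ttk, the kinase that starts checkpoint signalling, changed by -1.0 ± 0.06.

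The 4 genes of the chromosomal passenger complex, which corrects faulty attachments and later moves to the midzone, fell by close to the same amount. Aurkb, its kinase, went from 149, 150 and 151 CPM to 67.2, 71.5 and 69.4 CPM (-1.11 ± 0.04, edgeR adjusted p = 1.2e-07). Incenp, its scaffold, went from 260, 238 and 264 CPM to 142, 130 and 133 CPM (-0.91 ± 0.05, edgeR adjusted p = 1.96e-06). Birc5 (survivin) changed by -1.01 ± 0.04 and Cdca8 (borealin) by -1.07 ± 0.03. The Aurka to Aurkb ratio of FPKM was 1.20 ± 0.0446 in Mmrn1-low and 0.886 ± 0.0266 in Mmrn1-high libraries. Which Aurora kinase was the more abundant cannot be read from it, because that depends on the gene lengths behind FPKM. In CPM, Aurka was below Aurkb in Mmrn1-low (120 against 150) and in Mmrn1-high libraries (41.1 against 69.4). Their annotated exon bases number 2531 and 2946. The Aurka to Aurkb ratio, like the others given here, was chosen after the values had been seen and carries no test.

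Centromere and kinetochore genes had the smallest median change of the 10 role groups, -0.69, with 11 of 13 lower and a range from -1.13 to -0.15. Cenpe, a kinesin that carries chromosomes to the spindle equator, fell most, from 173, 171 and 177 CPM to 76.6, 81.3 and 80.3 CPM (-1.13 ± 0.04, edgeR adjusted p = 1.2e-07). Cenpf, a large protein of the outer kinetochore, changed by -1.05 ± 0.04, Cenpa, the centromeric histone, by -0.99 ± 0.07 and Knstrn, a spindle and kinetochore adaptor, by -0.79 ± 0.06. In the Ndc80 complex, which grips the microtubule, Nuf2 changed by -0.94 ± 0.05, Spc24 by -0.74 ± 0.06 and Ndc80 by -0.52 ± 0.07. The remaining subunit, Spc25 (ENSMUSG00000005233), was at 30.5, 55.8 and 56.5 CPM in Mmrn1-low and 28.0, 29.9 and 30.9 CPM in Mmrn1-high libraries. Its Mmrn1-low replicate 1 sat among the Mmrn1-high libraries, and the test did not call it (-0.69 ± 0.26, edgeR adjusted p = 0.069). Without that library the change was -0.92 (edgeR adjusted p = 3.18e-05), and DESeq2 with all libraries called it (adjusted p = 0.00191).

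The members of the inner kinetochore network that stays on the centromere through the cell cycle (the CCAN) had small changes as a group. Cenpi changed by -0.58 ± 0.08, Cenpk by -0.35 ± 0.09, Cenpm by -0.33 ± 0.07 and Cenpn by -0.28 ± 0.05. The calls of Cenpk and Cenpm were lost with library size alone (edgeR adjusted p = 0.0859 and 0.0604). Cenph (ENSMUSG00000045273, chr13:100759674-100775899) was at 35.9, 36.4 and 39.3 CPM in Mmrn1-low and at 32.7, 34.2 and 33.9 CPM in Mmrn1-high libraries. Its groups lay side by side without overlap, but the difference of -0.15 ± 0.06 was not called (edgeR adjusted p = 0.06); limma voom with quality weights called it (-0.16, adjusted p = 0.0421). In this grouping, made after the values were seen, 4 of 5 CCAN members fell with a median of -0.33, against 7 of 8 and a median of -0.87 for the other kinetochore members. A further 8 CCAN genes outside the 60 all fell, with a median of -0.47 and a range from -0.86 (Cenpl) to -0.18 (Cenpt). Small changes were not particular to the CCAN. Among kinetochore genes outside both the CCAN and the 60, Dsn1, Nsl1 and Mis12 changed by -0.20, -0.28 and -0.36. Others in that set, such as Knl1 (-0.70) and Ska1 (-1.23), changed more. With library size alone, 2 of the 5 members and 6 of the 8 further genes were lower (medians -0.18 and -0.32), and Cenph stood at 0.0015.

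All 9 mitotic kinesins fell, within the narrow range of -1.16 to -0.69. Kif2c, which takes microtubules apart at the centromere, fell most, from 67.8, 64.7 and 70.3 CPM to 30.1, 31.7 and 29.0 CPM (-1.16 ± 0.06, edgeR adjusted p = 1e-06). Kif11 (ENSMUSG00000012443, chr19:37376403-37421859), the Eg5 motor that pushes spindle poles apart, was the most abundant per length and went from 306, 318 and 314 CPM to 147, 156 and 144 CPM (-1.07 ± 0.04, edgeR adjusted p = 1.67e-07). Kif23, a motor of the central spindle, changed least, from 116, 114 and 119 CPM to 70.1, 75.7 and 70.1 CPM (-0.69 ± 0.04, edgeR adjusted p = 4.09e-06). In each of these 3 motors the groups were well separated. Kif18b, Kif15 (a motor that backs up Kif11), Kif4 and Kif22 (motors that bind chromosomes) and Kif20b changed by -1.12, -1.0, -0.96, -0.91 and -0.90. Kif20a, a motor of cytokinesis, changed by -1.14 ± 0.05, but 29.3% of its exon bases also lie in the exons of Cdc23 on the opposite strand, and Cdc23 itself changed by -0.35 ± 0.04.

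Among 6 spindle assembly genes, all lower with a median of -1.07, Hmmr changed most and Ckap2 least. Hmmr, a microtubule-binding protein of spindle poles, went from 129, 130 and 137 CPM to 46.3, 51.9 and 47.2 CPM (-1.44 ± 0.05, edgeR adjusted p = 2.31e-07). Ckap2, a stabiliser of spindle microtubules, was at 46.2, 52.9 and 61.4 CPM in Mmrn1-low and at 39.6, 40.6 and 38.8 CPM in Mmrn1-high libraries (-0.43 ± 0.10, edgeR adjusted p = 0.00586). Its Mmrn1-low libraries were spread out, and the lowest of them lay only just above the Mmrn1-high libraries. The call of Ckap2 was lost in the 3 limma-trend fits on FPKM (adjusted p = 0.0675, 0.0673 and 0.118). Ckap2l, related to Ckap2, went from 99.6, 101 and 106 CPM to 52.7, 52.7 and 51.0 CPM (-0.97 ± 0.04, edgeR adjusted p = 5.4e-07). Tpx2, which activates Aurka on the spindle, changed by -1.19 ± 0.04, Tacc3, which bundles kinetochore fibres, by -1.16 ± 0.05 and Nusap1, a microtubule bundler, by -0.92 ± 0.04.

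The 4 cytokinesis genes fell with a median of -1.07. Anln encodes anillin, the scaffold of the contractile ring. It went from 108, 108 and 111 CPM to 49.9, 49.9 and 47.4 CPM (-1.15 ± 0.04, edgeR adjusted p = 1.73e-07). Racgap1, the partner of Kif23 in the central spindle, went from 170, 166 and 169 CPM to 100, 104 and 94.1 CPM (-0.76 ± 0.04, edgeR adjusted p = 1.88e-06). Both members of that pair thus had the smallest change of their role group, -0.69 for Kif23 and -0.76 for Racgap1. Prc1, which cross-links midzone microtubules, changed by -1.11 ± 0.04 and Ect2, the exchange factor that activates RhoA at the cleavage site, by -1.04 ± 0.05.

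The APC/C and anaphase group held both the largest and the smallest change of all 60 genes, with 5 of 6 lower. Ube2c (ENSMUSG00000001403, chr2:164769898-164778822), the ubiquitin-conjugating enzyme that works with the APC/C, was at 240, 236 and 227 CPM in Mmrn1-low and at 63.1, 63.0 and 61.3 CPM in Mmrn1-high libraries. The Mmrn1-high libraries differed from each other by little and lay far below the other group, with a log2 fold change of -1.91 ± 0.03 (edgeR adjusted p = 8.91e-09). Of its exon bases 22.8% overlap Tnnc2 on the opposite strand, which had 0 counts in all 6 libraries. Cdc20 (ENSMUSG00000006398, chr4:118432901-118437352), the activator of the APC/C at anaphase, went from 272, 257 and 254 CPM to 102, 106 and 94.9 CPM (-1.37 ± 0.05, edgeR adjusted p = 1.73e-07). Its exchange partner after anaphase, Fzr1 (Cdh1), is not among the 60 and changed by -0.68 ± 0.06, and the Cdc20 to Fzr1 ratio of FPKM went from 7.30 ± 0.249 to 4.54 ± 0.460.

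Fbxo5 encodes Emi1, the inhibitor that keeps the APC/C off from S phase until mitosis. It was at 48.0, 48.2 and 51.7 CPM in Mmrn1-low and at 40.3, 45.6 and 42.5 CPM in Mmrn1-high libraries, a small difference of -0.20 ± 0.06 without overlap (edgeR adjusted p = 0.0215). That call was lost without a filter on low counts (0.0589), with at least 5 CPM in 3 libraries (0.0582), without Mmrn1-low replicate 3 (0.083), Mmrn1-high replicate 1 (0.0851) or Mmrn1-high replicate 3 (0.0542), with library size alone (0.468), and in the 3 limma-trend fits on FPKM (0.416, 0.416 and 0.499). The Ube2c to Fbxo5 ratio of FPKM was 4.0 ± 0.270 in Mmrn1-low and 1.23 ± 0.0793 in Mmrn1-high libraries.

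Separase and securin, the protease that cuts cohesin and its inhibitor, had different values. Espl1 (separase) changed by -1.07 ± 0.04 and Ccnf, a cyclin-like F-box protein, by -1.12 ± 0.05. Pttg1 (securin, ENSMUSG00000020415, chr11:43420250-43426251) was at 15.9, 16.0 and 10.5 CPM in Mmrn1-low and at 12.8, 13.3 and 13.9 CPM in Mmrn1-high libraries. The Mmrn1-high libraries lay between the Mmrn1-low values, and the difference of -0.07 ± 0.16 was not called (edgeR adjusted p = 0.745). The sign of Pttg1 depended on single libraries: without Mmrn1-low replicate 3 it was -0.249 (edgeR adjusted p = 0.0446), without Mmrn1-low replicate 1 it was 0.04 and without Mmrn1-low replicate 2 it was 0.03.

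Both transcription factors of the mitotic programme fell, by unequal amounts. Mybl2, which encodes B-Myb, went from 189, 179 and 174 CPM to 81.9, 83.8 and 82.6 CPM (-1.13 ± 0.04, edgeR adjusted p = 1.73e-07); adding its pseudogene copy, 11% of the sum, left the change at -1.13. Foxm1 was at 81.4, 83.1 and 84.6 CPM in Mmrn1-low and at 56.1, 67.2 and 54.3 CPM in Mmrn1-high libraries (-0.48 ± 0.08, edgeR adjusted p = 0.00104). The Mmrn1-high libraries of Foxm1 were spread out but all below the Mmrn1-low libraries.

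Top2a and Mki67 carried the most counts of the 60. Top2a (ENSMUSG00000020914, chr11:98992943-99024189), the topoisomerase that untangles sister chromatids, went from 1006, 1007 and 1020 CPM to 573, 586 and 567 CPM (-0.81 ± 0.02, edgeR adjusted p = 8.68e-08). Mki67 (ENSMUSG00000031004, chr7:135689784-135716361), the surfactant of mitotic chromosomes stained as Ki-67, went from 693, 682 and 709 CPM to 373, 388 and 372 CPM (-0.88 ± 0.03, edgeR adjusted p = 1.3e-07). Both fell by less than the median member.

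By the authors' FPKM the order of abundance was different, and these levels depend on the gene lengths behind FPKM. By mean FPKM over all libraries the members ranged from the 37.0 to the 95.6 percentile of tested genes, with a median of 74.9. Cdc20 made up 7.55% of the members' summed FPKM in Mmrn1-low and 5.87% in Mmrn1-high libraries, Ube2c 5.62% and 3.01%, and Plk1 4.13% and 2.37%. Shares went the other way for Ccnb2 (6.68% and 7.93%), Top2a (6.27% and 7.17%), Cenph (1.28% and 2.32%) and Fbxo5 (1.41% and 2.45%). The transcripts of the 60 genes were thus mixed in other proportions in Mmrn1-high libraries, and the Plk1 to Top2a ratio of FPKM, for instance, was 0.659 ± 0.0474 against 0.330 ± 0.0149.

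**Figure D4:**
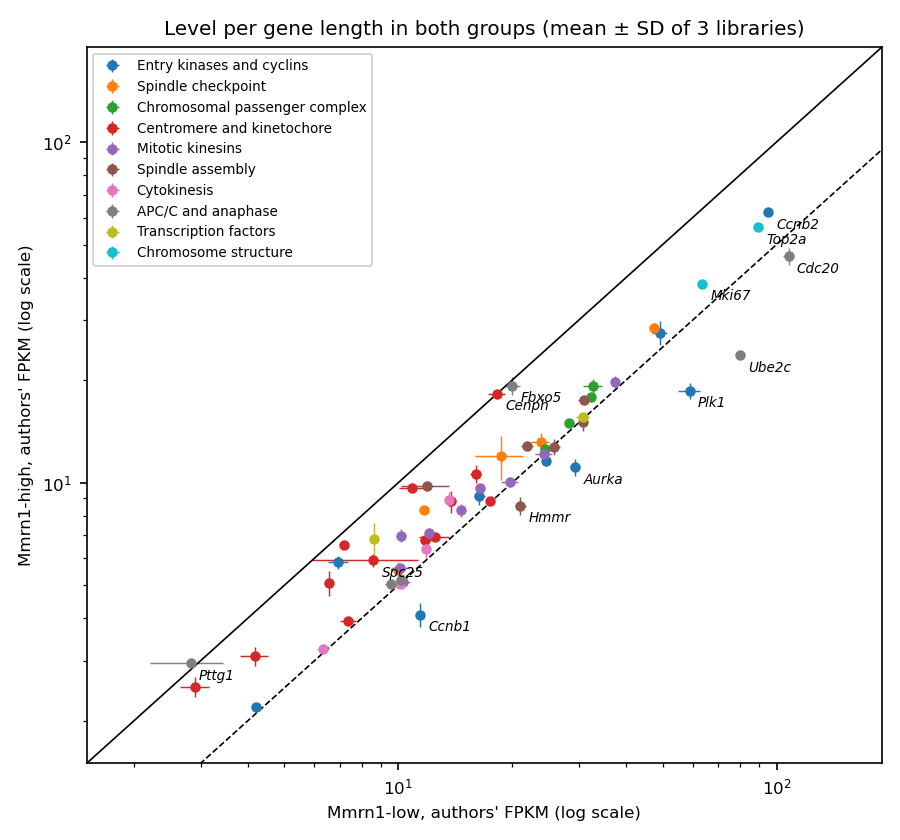
Mean FPKM in Mmrn1-low (x axis) and Mmrn1-high cells (y axis) of the 60 genes, both on log scales, with the SD of 3 libraries as bars and colours for role groups; the solid line marks equal FPKM and the dashed line a ratio of 0.5. FPKM carries no composition factor, so points lie a little higher than in the fold changes. Ube2c, Plk1 and Ccnb1 lie furthest below the dashed line, and others, such as Aurka, Hmmr and Cdc20, also lie below it. Cenph, Fbxo5 and Pttg1 lie at the solid line.

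The genes around the 60 in the same pathways were counted in the same way, to be read beside the 30.5% of all tested genes that fell and the 30.7% that rose. Of 53 further mitotic genes 52 fell, with a median of -0.70; the smallest p-values belonged to Spag5, an astrin of the spindle (-0.91 ± 0.04), Cks1b, a subunit of Cdk complexes (-0.83 ± 0.03), and Gtse1, a microtubule-associated protein (-1.38 ± 0.06). Psrc1, a spindle protein, was the 1 not called (-0.17 ± 0.07, edgeR adjusted p = 0.0654). All 8 condensin genes, which compact chromosomes, fell with a median of -0.61, led by Smc2 (-0.75 ± 0.03), Smc4 (-0.80 ± 0.05) and Ncapg (-0.72 ± 0.04). Of 16 genes in the APC/C subunit list 8 fell, with a median of -0.13, among them Anapc1 (-0.54 ± 0.03) and Fzr1 (-0.68 ± 0.06). With library size alone 4 were lower and 2 higher and the median was 0.01. The list also holds genes that are not subunits: Fzr1, an activator, and Ube2s, a ubiquitin-conjugating enzyme, which was not called. Members of the MuvB, DREAM and NF-Y complexes mostly stayed uncalled: 3 of 14 fell and 2 rose (median -0.08), with E2f4 at -0.36, E2f5 at 0.82 ± 0.14 and Rbl2 at 0.21. Rbbp4 (-0.14) and Rbl1 (-0.13) were the other two called, and both stood at 0.01 with library size alone.

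Genes of the G1/S transition and of DNA replication, which act earlier in the same cycle, were called in both directions. Of 32 genes 11 fell and 8 rose (median -0.00), near the shares of all tested genes (30.5% and 30.7%). With library size alone 6 were lower and 16 higher. Rrm2, the ribonucleotide reductase subunit made in S phase, was lower at -0.95 ± 0.03, as were Cdc45 (-0.76), a helicase factor, and E2f8 (-0.63), a repressor. Mcm6, a subunit of the replicative helicase, was higher at 0.24 ± 0.03, as were E2f2 (0.38) and E2f1 (0.33). Of the 6 helicase genes Mcm2 to Mcm7, grouped after the values were seen, 4 were higher and 1, Mcm5 (-0.13), lower; with library size alone 5 were higher and Mcm5 stood at 0.02. In the list of Cdk inhibitors, D cyclins and their kinases, 4 of 10 genes were higher and 0 lower, beside 30.7% and 30.5% of all tested genes (7 higher with library size alone). They were Ccnd1 (cyclin D1, 1.47 ± 0.08) and the inhibitors Cdkn1a (p21, 12.7 to 39.6 CPM, 1.64 ± 0.14), Cdkn1c (p57, 1.46 ± 0.23) and Cdkn1b (p27, 0.99 ± 0.25). CHR letters were found in 73.1% of the 60 where a promoter was at hand. They stood in 23 of 42 further mitotic genes, 6 of 7 condensin genes and 8 of 27 of the G1/S list. In the list of Cdk inhibitors, D cyclins and their kinases they stood in 0 of 7. In the same order, CCAAT letters stood in 30, 3, 21 and 4 genes, and E2F letters in 17, 3, 13 and 2.

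**Figure D5:**
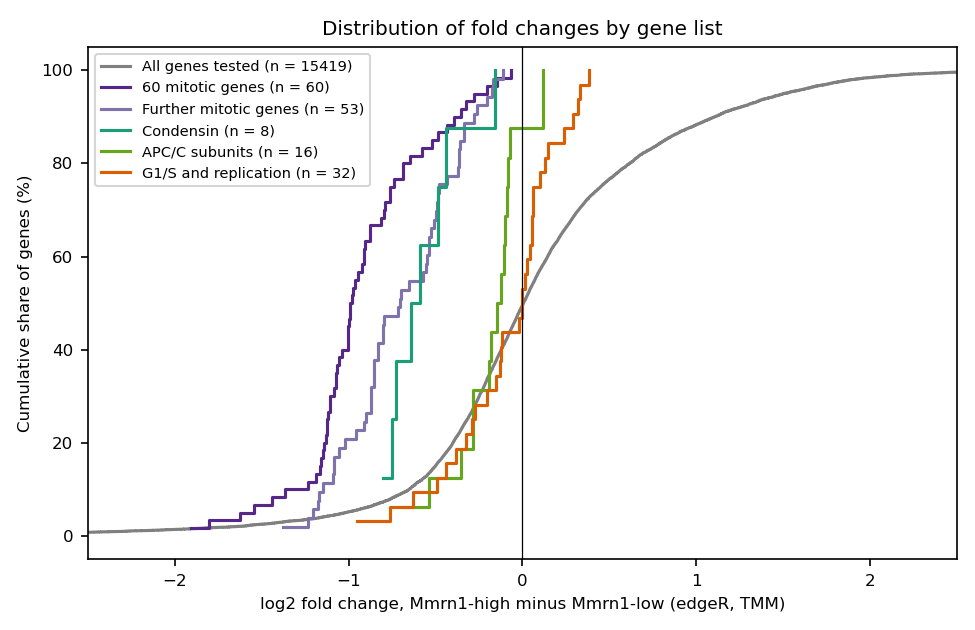
Cumulative share of genes (%) by log2 fold change of Mmrn1-high minus Mmrn1-low for all 15419 tested genes, the 60 mitotic genes and 4 neighbouring lists; the x axis is cropped at its ends. The curve of the 60 genes rises around its median of -0.99 and that of the further mitotic genes around -0.70. Those of the APC/C subunit list and the G1/S genes cross close to 0, where all genes have their median of 0.01.

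Read assignment limits some of these values. Exon bases of 20 of the 60 genes are shared with another annotated gene, and the sources at hand do not give the strand setting of the counting. Among the 40 without shared bases, 37 fell, with a median of -0.97.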

How the data were processed

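RNA-seq libraries of 3 Mmrn1-low and 3 Mmrn1-high samples were compared. The deposited table gives raw gene counts and FPKM values; per the submitters' processing notes CASAVA 1.8, HISAT2, StringTie, edgeR and GRCm38 were used, with no role given. The authors' FPKM values carry no composition factor, and no strand setting is stated. The libraries, per the labels' protocols, were stranded, poly-A selected and paired-end.

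The deposited counts were fitted in R 4.3.3 with edgeR 4.0.16 (quasi-likelihood, TMM, filterByExpr, group as the only term) over all 15419 genes passing the filter, with Benjamini-Hochberg adjusted p under 0.05 as a call. The SE was taken from the fold change over the root of its F statistic. The procedure was run on simulated counts in which far fewer genes changed than were called here, in equal numbers up and down. That run cannot test the scaling where so many genes differ. Totals of 11595104 to 30909990 counts make 3 counts worth 0.0925 to 0.245 CPM. Copies were found with BLAST 2.17.0 and exon overlaps with GENCODE M21. Tables and figures used Python 3.11.15, pandas 2.3.3 and matplotlib 3.10.9.

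The members, lists and rules were chosen with earlier results of these data known. In each role group the members with the largest and the smallest change and the highest FPKM, and all members not called, were named with every library. From each further list up to 3 genes with the smallest p in each direction were named, and other members with their fold change. Ratios and the groupings marked so were chosen after values were seen. Alternatives were other scaling factors, filters, thresholds, DESeq2 1.42.0, limma 3.58.1 (voom, and limma-trend on log2 FPKM with a pseudocount of 1 or 0.1), the replicate number as a block, and leaving out each library.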

Additional observations from a re-analysis of the deposited data

How the results depend on the processing

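The members lower in Mmrn1-high numbered 53 to 58 under the other scalings, filters, units and tests, an adjusted p under 0.01 and the leave-one-out fits, and 0 were higher in each of these. Their median moved from -0.99 to -0.84 with library size alone, to -0.94 with at least 5 CPM in 3 libraries, and in limma-trend to -0.75 on log2(FPKM + 1), with or without a filter, and to -0.83 on log2(FPKM + 0.1); all but the second carry no TMM factor. The summed level changed by -0.83 with library size alone. The G1/S list had 6 lower with library size and each FPKM setting, and 16 higher with library size, 15 in both filtered FPKM fits and 14 unfiltered. Asking for a change of 1 or more on the log2 scale left calls in 2492 of all genes, 27 of the members, 11 of the further mitotic genes and 0 of the G1/S list in either direction. Without members that share exon bases, an alternative chosen after seeing the data, 37 of 40 were lower. The sign turned for Cenph, to 0.0015 with library size alone and to 0.0025, 0.0027 and 0.0025 in the FPKM fits, and for Pttg1, to 0.0804 with library size alone, 0.0219 with voom, 0.0618, 0.0867 and 0.0618 in the FPKM fits, 0.0394 without Mmrn1-low replicate 1 and 0.0299 without Mmrn1-low replicate 2 (-0.249 without replicate 3, called); the reversed values did not pass the threshold, and the cause was not tested. The Fbxo5 call was lost with library size alone, in the FPKM fits, with either other filter and in 3 of the 6 fits that left out a library. Without TMM factors, Cenpk was lost with library size alone and in all FPKM fits (adjusted p of 0.0859, 0.112, 0.113 and 0.173), Cenpm with library size alone and unfiltered FPKM (0.0604 and 0.0847), and Ckap2 in all FPKM fits (0.0675, 0.0673 and 0.118). Same-numbered libraries did not deviate together (correlations of 0.0426, -0.0785 and 0.0286). With 3 libraries per group this cannot settle whether the numbers pair them, and the origin of the replicates is not stated. With a replicate block 57 members and 8923 genes in all were called, against 57 and 9438, and no member's call changed.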
